A study of Mus musculus with 4 samples.

Results

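MP amacrine cells were sorted from the retina of mice at postnatal day 6 as neurons positive for both CFP, a fluorescent protein made from the MP transgene, and VC1.1, an antibody against amacrine cells. They were measured on 2 of the 4 arrays of the series, chosen by the sample titles, and are described here by what they express rather than by what sets them apart. The mice were of a mixed C57Bl6 x CD1 background, born to transgene-carrying males and non-carrier females, and retinas were dissociated with papain. Amacrine cells were collected by flow cytometry on both labels. MP bipolar cells, which served as the background level, carried the same transgene and were collected as CFP-positive cells after VC1.1-positive cells had been held back on a magnetic column. Cell type and way of collection thus changed together, and their parts in a difference between the groups cannot be told apart. Each replicate held about 1000 cells of a litter of its own, and its RNA was amplified in 2 rounds. Which promoter drives MP is not stated in the sources used here, so the population is whatever cells express both the reporter and the VC1.1 antigen.

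Each value below is the linear intensity of 1 probe set, given as MP amacrine replicate 1 and 2 and, where useful, MP bipolar replicate 1 and 2. A gene was called detected when its lower amacrine intensity was above 80.3, the 95th percentile of 160 genes not known in retinal neurons, such as odorant receptors and keratin-associated proteins. By this rule 8718 of 18193 genes were detected, or 47.9%, against which the counts of every gene list below are read. Intensities rank signal and not RNA amount, since probe sets bind with different strength, so levels of different genes are not set against each other as amounts of RNA. Differences from the bipolar arrays were tested with limma on log2(intensity + 16) over 11583 genes, with 2 litters a group. Of these, 6.54% were called higher in MP amacrine cells and 6.92% lower at a Benjamini-Hochberg adjusted p under 0.05. Detected with both bipolar intensities below the level were 383 genes, or 2.11%.

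The amacrine arrays differed in 3-prime bias, whose part in the values of single genes was not tested. MP amacrine replicate 2 had a 3-prime over 5-prime signal of 3.21 (log2) at the Gapdh control probe sets, against 1.78 to 2.0 on the other 3 arrays, and 3.82 at the actin controls, against 1.89 to 2.13. Of the detected genes, 228 (2.62%) differed more than 2-fold between the amacrine arrays, and the median difference was 0.24 on the log2 scale. Array medians lay between 44.5 and 47.2.

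Amacrine cells are interneurons of the inner retina that shape bipolar and ganglion cell signals, and most of them release GABA or glycine. They fall into many types that are told apart by transcription factors, transmitter and peptide genes, and by the layer of the inner plexiform layer in which they branch. One type, named nGnG because it lacks the usual markers of both transmitters, is known for expressing Neurod6, a basic helix-loop-helix (bHLH) factor, and at the first postnatal week such cells are still forming synapses.

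The promoters of 4 transcription factor genes that were detected on both amacrine arrays and lay below the level on both bipolar arrays are shown because the factors belong to 2 families whose known core motifs can be looked for in them. The windows run from 250 bases before to 50 bases after the RefSeq transcript start (GRCm38.p6), 5′ to 3′ on the gene's strand. Capitals mark CAGATG, an E-box of the type bound by Neurod factors, or CCCNNGGG, the core bound by Ebf factors, both searched on both strands.
Neurod6, chr6:55681214-55681513, minus strand: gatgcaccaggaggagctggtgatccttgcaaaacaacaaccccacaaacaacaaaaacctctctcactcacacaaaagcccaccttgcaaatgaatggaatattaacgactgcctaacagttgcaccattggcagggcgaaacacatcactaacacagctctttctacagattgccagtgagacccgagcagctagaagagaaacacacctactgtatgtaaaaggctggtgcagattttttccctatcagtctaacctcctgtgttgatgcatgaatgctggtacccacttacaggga
Ebf3, chr7:137314396-137314695, minus strand: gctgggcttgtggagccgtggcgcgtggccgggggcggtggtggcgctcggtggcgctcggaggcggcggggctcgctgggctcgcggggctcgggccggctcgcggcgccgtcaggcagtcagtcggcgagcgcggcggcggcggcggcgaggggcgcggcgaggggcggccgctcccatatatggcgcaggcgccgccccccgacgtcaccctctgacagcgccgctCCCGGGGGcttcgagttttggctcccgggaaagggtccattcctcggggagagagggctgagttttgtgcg
Nhlh2, chr3:102009895-102010194, plus strand: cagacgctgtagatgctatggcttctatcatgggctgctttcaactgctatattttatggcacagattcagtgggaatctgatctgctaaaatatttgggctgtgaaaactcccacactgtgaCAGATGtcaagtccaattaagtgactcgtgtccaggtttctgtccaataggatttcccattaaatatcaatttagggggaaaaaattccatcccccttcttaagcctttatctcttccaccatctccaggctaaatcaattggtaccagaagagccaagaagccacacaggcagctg
Neurod2, chr11:98329596-98329895, minus strand: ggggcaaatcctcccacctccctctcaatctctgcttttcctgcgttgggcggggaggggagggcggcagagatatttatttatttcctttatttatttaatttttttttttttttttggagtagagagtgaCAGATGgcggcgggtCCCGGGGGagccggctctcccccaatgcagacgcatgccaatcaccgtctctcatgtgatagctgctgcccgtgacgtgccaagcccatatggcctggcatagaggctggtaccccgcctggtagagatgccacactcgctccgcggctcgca
The E-box occurred once in the Nhlh2 window and once in that of Neurod2, and the Ebf core once in Ebf3 and once in Neurod2. Of all 32851 promoter windows of this length, 17.15% held the E-box and 13.67% the Ebf core. A match is a description of these letters and says nothing of binding.

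All 7 markers of these cells were detected. Neurod6 read 1679.6 and 1493 in the amacrine cells against 9.55 and 5.99 in the bipolar cells. Ebf3, a helix-loop-helix factor of the Ebf family, read 3852 and 3600.5 against 18.7 and 15.9, and all 3 of its probe sets lay above the level. Ppp1r17, a regulator of phosphatase activity, read 2098 and 2118 against 59 and 87.4, the closest pair of amacrine values among the markers. These 3 genes lay above 95%, 99.4% and 97.4% of all genes in the amacrine cells, and the bipolar values of Neurod6 and Ebf3 were near the median of the reference genes, 11.4. Pax6, a homeobox factor of amacrine, horizontal and ganglion cells, read 1139 and 1405 against 32.3 and 44.9, with 2 of 5 probe sets above the level. Tfap2c, an AP-2 factor of amacrine cells, read 434 and 918 against 6.05 and 2.83, with 1 of 3 probe sets above the level. The 2 transporters were nearer to the bipolar signal. Slc32a1, the vesicular transporter of GABA and glycine, read 1292 and 1025 against 101 and 99.98, and Slc6a9, the glycine transporter GlyT1, 649.6 and 420.0 against 81.9 and 90.8. In every marker both amacrine values were above both bipolar values. The markers were chosen as genes of these cells, so their values are no independent evidence of what the cells are. The log2 differences were 6.08 for Neurod6, 6.81 for Ebf3, 4.59 for Ppp1r17, 4.56 for Pax6, 4.99 for Tfap2c, 3.33 for Slc32a1 and 2.40 for Slc6a9, with limma adjusted p between 1.21e-05 and 6.96e-04. From sorted pools, fewer cells of a type and less RNA per cell cannot be told apart.

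**Figure D1:**
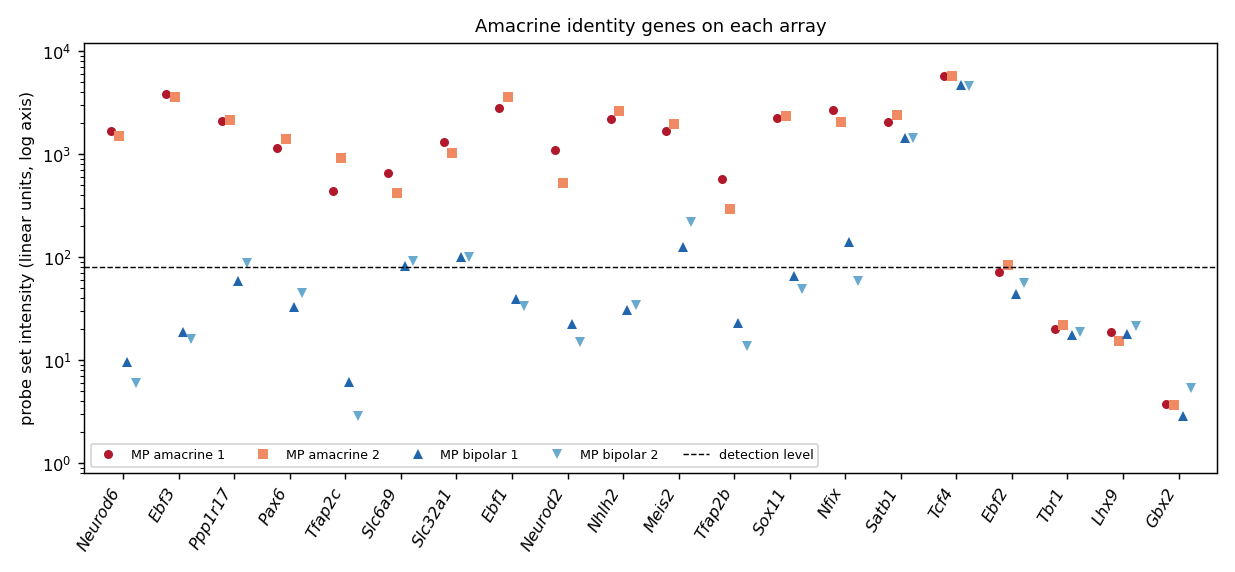
Intensities (log axis) of amacrine identity genes on the 4 arrays, with the detection level of 80.3 as a dashed line. The 7 markers, at the left, lie above the level on both MP amacrine arrays, and Tbr1, Lhx9 and Gbx2, at the right, lie below it on all 4 arrays.

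The brightest genes of the population included tubulin, translation factor, ribosomal protein and RNA-binding protein genes. Tuba1a, the alpha tubulin of growing neurons, led the ranking at 8097 and 6832, followed by Eif4g2, a translation factor, at 6803 and 6677, and Hmgn1, a nucleosome-binding protein, at 6687 and 6436. Among the 25 brightest were the fatty acid carrier Fabp5, the ribosomal protein genes Rps28, Rps29, Rps20 and Rps18, and the RNA-binding protein genes Ddx17, Pabpn1, Hnrnpa2b1, Matr3, Serbp1 and Srsf1. Cytoskeleton and growth genes were Nrep, the microtubule regulator Mapre2 and Dpysl2, which acts in axon growth. Others were Morf4l2, Bex1, Uqcrb, Atxn10, Tpt1, the bHLH factor Tcf4, the hypoxia factor Hif1a and the bicarbonate exchanger gene Slc4a8. The bipolar arrays gave the same genes similar signal, and 3 of the 25 were called. Tcf4 (0.31) and Hif1a (0.52) were higher and Mapre2 (-0.30) lower in the amacrine cells, each by a small log2 difference. Without MP bipolar replicate 1 none of the 3 was called, and without MP bipolar replicate 2 the limma adjusted p was 0.251 for Tcf4 and 0.379 for Mapre2. Slc4a8 read 7223 and 5361, but 4 of its 5 probe sets lay below the level. In all, 1520 genes reached an intensity of 1000 on both arrays.

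Most of what the cells expressed was shared with the bipolar cells. By the same level 8645 genes were detected on both bipolar arrays, and 7991 on all 4 arrays, which is 91.7% of the amacrine and 92.4% of the bipolar genes. Of the 8718 detected amacrine genes, 679 were called higher than in bipolar cells, 506 lower, and 7533 were not called.

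The brightest genes that were also at least 8-fold above bipolar cells (log2 difference of 3 or more, 96 genes) included transcription factors, signalling receptors and surface proteins. Ier5, an immediate early response gene, led at 4479 and 4271 against 460.3 and 548, and Zbtb18, a zinc finger repressor of developing neurons, read 4007 and 3855 against 442 and 355. Lhfp read 4002 and 3657 against 28.8 and 27.5, so this membrane protein gene lay below the level in bipolar cells. F2r, the thrombin receptor PAR1, read 3011 and 3089.6 against 147 and 154. The surface glycoprotein gene Cd24a read 2975 and 2905 against 155 and 43.8. The group held receptors that sense secreted signals in development. Ret, the receptor for GDNF-family ligands, read 3234 and 2801 against 21.6 and 19.3, and Lgr5, the R-spondin receptor, 1827 and 3055 against 50 and 44.1. The lymphatic growth factor gene Vegfc read 3352 and 2820.2, and the retinoic acid-binding protein gene Crabp1 3381 and 2301, against at most 64.9 in bipolar cells. The Hmx1 homeobox gene, known for its role in the eye and ear, read 1928 and 2069 against 55.2 and 65.5. The other members of the 25 brightest were Ebf3, Ebf1, Sox11, Nckap5, Grik2, St18, Nhlh2, Ppp1r17, Nfix, Pkdcc, Efnb2, Pcdh8, Meis2, Gas1 and Mab21l1. Over the 25 genes the lowest amacrine value was 1589.9 and the highest bipolar value 548. The genes were picked by brightness and by their difference from bipolar cells, so this gap follows from the choice.

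The list of Neurod6-expressing amacrine types had 8 of 13 members detected (61.5%), and the members split into a bright and a dim group. Ebf1, an Ebf family factor, read 2789 and 3599.9 against 39.2 and 33.2, with all 5 probe sets above the level. Neurod2, a bHLH factor related to Neurod6, read 1081 and 522 against 22.2 and 15, with replicate 1 the higher. Bcl11b, a zinc finger factor, read 257 and 294 against 228 and 231 and was not called. Satb1, a chromatin organiser, read 2017 and 2393 against 1416 and 1433 and was bright in both cell types. Far below the level were Tbr1 (20.1 and 22.1), Lhx9 (18.6 and 15.2), Cck (3.71 and 4.58), the gene of the peptide cholecystokinin, and Gbx2 (3.75 and 3.63). Ebf2 lay at the level, at 71.7 and 83.8. Of 9 tested members 7 were called higher and 0 lower, with a median log2 difference of 4.48 against -0.03 over all genes tested. The call of Satb1 (0.62) was lost without MP amacrine replicate 2 and without either bipolar replicate, with a limma adjusted p of up to 0.157. The list was drawn up from knowledge of these cells and so is no independent evidence.

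Genes shared by amacrine types were nearly all present, 19 of 22 (86.4%). The bHLH factors Neurod4 (4205 and 4593) and Neurod1 (2965 and 3155) were the brightest but equally bright in bipolar cells, at 4885 and 4822 and 2836 and 2941. Elavl3, a neuronal RNA-binding protein gene, read 1266 and 1232 against 90.1 and 77.2. The homeobox cofactors Meis2 and Meis1 read 1665 and 1965 and 835 and 1021. Tfap2b, an AP-2 factor, read 564 and 289.9 against 22.6 and 13.6, and its relative Tfap2a 176 and 296 against 111 and 79.6. Snhg11, a noncoding RNA gene of amacrine cells, read 901 and 287, so its amacrine values differed more than 3-fold. Not detected were Ptf1a (30.7 and 40.4), which starts the amacrine fate in precursors, and the AP-2 genes Tfap2d and Tfap2e. Of 19 tested members 11 were called higher and 1, Elavl2 (-1.38), lower, with a median log2 difference of 2.13. Elavl2 was not called without MP amacrine replicate 1 or without MP bipolar replicate 1 (limma adjusted p up to 0.122).

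Markers of other amacrine types gave a mixed picture. Of the dopaminergic markers 0 of 5 were detected. Th, the dopamine synthesis enzyme, read 27 and 18.6, Slc6a3, the dopamine transporter, 29.4 and 33.8, Ddc 34.4 and 27.5, Slc18a2 13.3 and 21.4 and Lmx1b 49.3 and 49. The defining genes of cholinergic starburst cells lay below or across the level, Chat, the choline acetyltransferase, at 66.3 and 86.8, Slc18a3 at 27.7 and 28.2 and Slc5a7, the choline transporter, at 8.22 and 18.1. Other genes of the starburst list were above it, 7 of 13 in all (53.8%), and 3 of those were called lower than in bipolar cells, the guidance ligand Slit2 (1532 and 1749 against 6155 and 6313), Rnd3 (307 and 355 against 2860.2 and 2943) and the teneurin Tenm3 (639 and 705 against 1651 and 1991). Isl1, a homeobox factor of starburst and ON bipolar cells, read 1055 and 925 against 574 and 684 and was not called. Slc17a9 (90.5 and 105 against 97.2 and 71.3) and Fgf1 (86.7 and 126 against 96.1 and 109.6) overlapped their bipolar values, and Megf11 read 138 and 91.7 against 34 and 39.1. Sox2 read 73.5 and 395 and Megf10 151 and 31.7, on opposite sides of the level. Fezf1 read 5.46 and 3.76. Of 11 tested starburst members 5 were called lower and 1, Megf11, higher. Without MP bipolar replicate 1 the limma adjusted p of Megf11 was 0.0587. Sdk2, the only VGluT3 cell marker analysed here, read 66.5 and 63.4.

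AII markers were mostly present, with 7 of 8 detected (87.5%). AII cells are glycinergic amacrine cells that couple rod bipolar cells to cone pathways. Besides Lgr5, which lay above 96.5% of all genes, Prox1, a homeobox factor also found in horizontal cells, read 629.7 and 1522 against 109.8 and 69.7, with replicate 2 the higher. Dab1, the adaptor of reelin signalling, read 228 and 245 against 25.4 and 26.2. The calcium-binding protein calretinin, Calb2, read 302 and 142 against 24.8 and 25.5, and the factor Nfia 246 and 386 against 64.7 and 65.9. These 5 genes were called higher, with limma adjusted p from 2.42e-05 to 0.0018. Gjd2, connexin 36, the gap junction protein of AII cells, was present at 445 and 372 but brighter in bipolar cells at 691 and 935. Its call (-0.95) was lost without MP amacrine replicate 2 or without either bipolar replicate (limma adjusted p up to 0.274). Lsamp, an adhesion protein, read 188 and 264 and was not called. Gja3 (20.6 and 20.2) was not detected.

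Of markers of single GABAergic types, 6 of 12 were detected (50%). Barhl2, a homeobox factor of amacrine subtypes, read 218 and 171 against 12.4 and 15.6 and was called higher. Lamp5 (90.2 and 510.3) and Maf (89.7 and 448) were at the level on replicate 1 and well above it on replicate 2. Among 13 markers of the A17, CRH, nNOS and peptide types 2 were detected, the kinase gene Prkca at 489.9 and 478 and Nos1, neuronal nitric oxide synthase, at 181 and 164, and neither was called. Without MP amacrine replicate 2, 4 of the 13 were above the level, since Npy (773 and 25) and Calb1 (517 and 39.5) were bright on replicate 1 alone.

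Among the genes of inhibitory transmission, the vesicular transporter Slc32a1 was bright, and the GABA-synthesising enzymes were dim or at the level of bipolar cells. Gad1 read 38 and 61.7, below the level on both arrays and above 8.58 and 9.93 in bipolar cells. Gad2 read 169 and 216, and its level in bipolar cells, 131 and 190.5, overlapped it. Abat, which breaks GABA down, read 239 and 320.3 against 84.7 and 53.1, and Aldh5a1, the next enzyme of that path, 771 and 639.7 against 947 and 1198. For glycine, the uptake transporter Slc6a9 was detected, while Slc6a5, the neuronal transporter GlyT2, read 48.1 and 58.5 against 43.2 and 43.3. The GABA transporter genes Slc6a11 (34.5 and 33.6), Slc6a13 (7.94 and 10.4) and Slc6a12 (1.15 and 5.54) were not detected. In all 5 of 10 presynaptic GABA and glycine genes were detected (50%), 3 were called higher than in bipolar cells, Slc32a1, Slc6a9 and Abat (1.81), and 0 lower. Slc32a1, Slc6a9 and Abat were each detected by 1 probe set, and the lower amacrine intensity of their next probe set was 78.9, 63.9 and 14.5.

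Of 8 genes of glutamate release and uptake 3 were detected (37.5%), led by glutamine synthetase, Glul, at 2103 and 1870.3 against 1594 and 1937. Slc1a1, the neuronal glutamate transporter, read 245 and 199, and Slc1a7, the transporter of bipolar terminals, 121 and 83.2. The vesicular glutamate transporters Slc17a6 (78.8 and 62) and Slc17a7 (59.3 and 67.2) lay below the level. Slc1a3, the glial transporter, read 71.3 and 196 and Slc1a6 92.3 and 50.5, on either side of it, and 1 of the 6 probe sets of Slc1a3 lay above the level on both arrays. Slc1a2 (37.1 and 56.4) was far dimmer than in bipolar cells (333 and 454). Slc1a3 and Slc1a6 were called higher and Slc1a2 lower of 8 tested, and without MP bipolar replicate 1 neither was called higher (limma adjusted p 0.0831 and 0.115). For acetylcholine and the monoamines, 4 of 18 presynaptic genes passed the level (22.2%): Pnmt, Dbh, Slc6a2 and Slc18a1. These 4 read alike on all 4 arrays, from 101 to 259, and none was called.

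**Figure D2:**
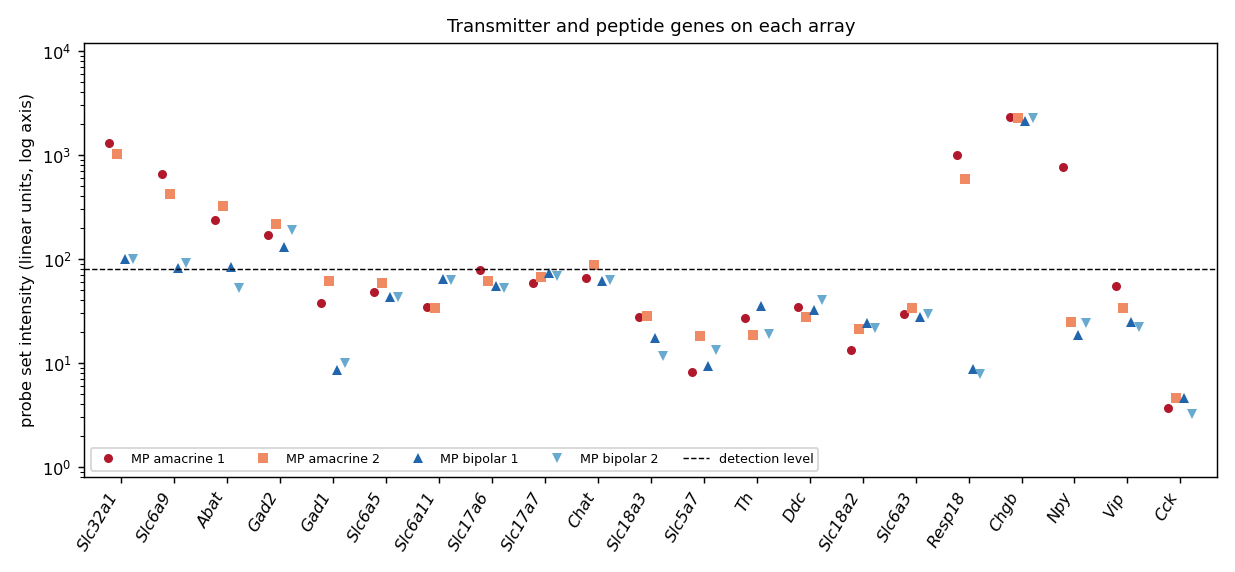
Intensities (log axis) of transmitter, transporter and peptide genes on the 4 arrays, with the detection level of 80.3 dashed. Slc32a1, Slc6a9 and Abat are higher on both MP amacrine arrays, Gad2 overlaps the bipolar arrays, and Gad1 lies below the level on all 4.

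Peptide genes were mostly below the level, while the machinery that packs and cleaves peptides was present. Of 53 neuropeptide, hormone and granin genes 9 were detected (17%). Chgb, the granin chromogranin B, was the brightest at 2341 and 2281, and read 2098 and 2271 in bipolar cells. Resp18, a protein of the regulated secretory pathway, read 1002 and 584 against 8.72 and 7.93 and was the only member called higher (log2 difference 5.01, SE 0.28, limma adjusted p = 2.71e-05). The granins Scg5 (611 and 582), Scg3 (638 and 531), Chga (360.0 and 341) and Scg2 (124 and 80.7), with Nucb2 (388 and 295) and Pcsk1n (249.9 and 140.0), made up most of the rest. The single classical peptide gene above the level was Oxt, the gene of oxytocin, at 200.2 and 217, and it read nearly the same in bipolar cells at 164 and 188. The peptides of known amacrine types were below the level on at least 1 array, among them Vip (54.6 and 33.5), Tac1 (21.4 and 39.9), Sst (16.2 and 11.1), Penk (8.07 and 1.5) and Crh (4.54 and 5.5). Of 13 genes for peptide processing and dense-core vesicles 11 were detected (84.6%). Cpe, a carboxypeptidase, read 3912 and 3785, the amidating enzyme Pam 1581 and 1367 and Cadps, a vesicle priming factor, 1403 and 1246. Pam was called higher (1.12), and Cadps (-1.74), Scg3 (-2.10) and Scg2 (-2.01) were among 4 called lower. Among 19 tested peptide genes 5 were called lower, and the number was 3 without MP amacrine replicate 2 or without MP bipolar replicate 2.

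Of 11 genes of gas and lipid messengers 7 were detected (63.6%), against 47.9% over all genes. The enzymes of the endocannabinoid 2-AG were present, Dagla, which makes it, at 210.0 and 112 against 25.1 and 27.3, Daglb at 164 and 156, and Mgll, which degrades it, at 733 and 427 against 95.9 and 131. Dagla (2.01) and Mgll (2.17) were called higher, the latter not when probe sets open to cross-hybridisation were left out. Cnr1, the cannabinoid receptor, read 191 and 895 against 12.3 and 19.3, so replicate 2 was much the higher and both amacrine arrays lay above both bipolar arrays. Of the guanylyl cyclase subunits that nitric oxide activates, Gucy1a1 (845 and 804) and Gucy1a2 (356 and 483) were detected, and Gucy1b1 read 96.8 and 28.4 against 551 and 777 and was called lower (-3.24). The other of its 2 probe sets lay above the level on both amacrine arrays, and with that probe set the gene was not called.

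Of 6 glycine receptor genes, gephyrin included, 3 were detected (50%). Glra2, a glycine receptor alpha subunit, read 1463 and 1393 against 25.3 and 41.4 in bipolar cells. Glra1 was its mirror image, at 27.1 and 13.5 against 2079.8 and 1876. Glra3 (16.1 and 25.2) and Glra4 (6.97 and 3.97) were not detected, while the shared beta subunit Glrb (1484 and 1089.7) and the scaffold gephyrin, Gphn (799 and 725), were bright in both cell types. Glra2 (log2 difference 4.89, SE 0.24, limma adjusted p = 1.93e-05) and Glra1 (log2 difference -5.80, SE 0.26, limma adjusted p = 1.59e-05) were called in opposite directions. Of the GABA-A and GABA-rho subunits 5 of 15 were detected (33.3%): the beta subunit Gabrb2 at 380.2 and 445, Gabra3 at 189.6 and 174, Gabrg1 at 144 and 125, Gabra2 at 209 and 108 and Gabre at 99.90 and 100.1. Gabra3 was well above its bipolar values of 22.2 and 23.4, and Gabrb2 well below its 2343 and 2769.6. Gabrb1 lay just under the level at 73.7 and 78.7, far below its 1202 and 1796 in bipolar cells. Gabrr1, a rho subunit of bipolar cells, read 254 and 56.6 against 1856 and 1953, above the level on amacrine replicate 1 but not 2. Gabrb1 (-4.01), Gabrr1 (-3.78), Gabrb2 (-2.58), Gabrr2 (-2.19), Gabra4 (-2.04) and Gabra5 (-1.52) were called lower. Of 11 tested subunits 2, Gabra3 (2.35) and Gabrg1 (1.18), were called higher and 6 lower, and Gabrg1 was not called without either bipolar replicate (limma adjusted p up to 0.0557). Of 4 GABA-B receptor genes 2 were detected (50%). The receptor gene Gabbr1 (1203 and 792) was bright in both cell types. Kctd8, an auxiliary subunit of that receptor, read 325 and 912 against 30.7 and 17.4 and was called higher (3.83). Kctd16 and Kctd12b were not detected.

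Of 20 AMPA, kainate and delta receptor genes with their auxiliary subunits 11 were detected (55%). Grik2, a kainate receptor subunit, was the brightest at 2277 and 2625 against 98.7 and 136, on 1 of its 2 probe sets. Gria4 (1834 and 1808) and Gria2 (1607 and 2088), AMPA receptor subunits, followed, and Gria2 was not called. Gria3 read 112 and 192 against 32 and 28.6, and Gria1 lay below the level at 55.7 and 44.7. Grik1, the kainate subunit of OFF bipolar cells, was dim at 24.2 and 30 against 234 and 156. Neto2, a kainate receptor auxiliary subunit, read 390.0 and 446, Grik3 253 and 201 and the AMPA receptor auxiliary subunits Cacng2, Cacng7 and Cacng4 272 and 172, 169.9 and 219 and 186 and 113. Of 15 tested 5 were called higher, Grik2 (4.22), Gria4 (1.52), Gria3 (1.82), Neto2 and Grik3, and 4 lower, among them the delta receptor gene Grid1 (173 and 88 against 417 and 349), which was not called without MP bipolar replicate 1 (limma adjusted p 0.0789). Without MP bipolar replicate 2 the number called higher was 3, with limma adjusted p of 0.0893 for Neto2 and 0.146 for Grik3. Grin2b was the only detected NMDA receptor gene of 6 (16.7%), at 585 and 594 against 375 and 386. Grin2d (46.8 and 81.1) straddled the level, and Grin2a (39.2 and 43.5), Grin2c, Grin3a and Grin3b were below it. Among metabotropic receptors and their Homer scaffolds 4 of 9 were detected, Homer1 at 233 and 303, Grm7 at 169 and 247, Grm8 at 98.7 and 113 and Homer3 at 118 and 90.1, and none was called higher.

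Receptors for modulators were sparse. Of 16 nicotinic and muscarinic receptor genes, Lynx1 included, 4 were detected (25%). Lynx1, a membrane-anchored modulator of nicotinic receptors, read 286 and 321, and the subunits Chrna3, Chrna4 and Chrnb2 227 and 232, 219 and 157 and 185 and 111. Chrna4 read 995 and 1390 in bipolar cells and was called lower (-2.56). Chrna7, below the level on both arrays at 69.1 and 79, was also called lower (-1.65), against 248 and 286. Chrna5, a subunit that joins Chrna3 in receptors, read 128 and 62.9 against 21.1 and 13.5 and was called higher (1.69) without passing the level on replicate 2. The muscarinic genes Chrm1 (38.5 and 53.4), Chrm3 and Chrm4 were not detected. Of 23 monoamine receptor genes 4 passed the level (17.4%). The dopamine receptor gene Drd1 read 196 and 129, far below its 2113 and 1940.3 in bipolar cells, and the serotonin receptor gene Htr1d 165 and 179. Hrh3 (153 and 156) and Htr1a (80.7 and 89) overlapped their bipolar values of 169.6 and 153 and 80.9 and 85. Purine, cannabinoid and melatonin receptors had 2 of 17 detected (11.8%), P2rx4, an ATP-gated channel, at 314 and 222, and Cnr1. Of 48 peptide receptor genes 10 were detected (20.8%). The opioid-related nociceptin receptor Oprl1 read 175 and 104 against 24.8 and 19.6 and was called higher (1.99). Crhr1, a receptor of corticotropin-releasing hormone, read 159 and 222 against 82.7 and 66. Tacr3, a neurokinin receptor of bipolar cells, read 145 and 94.5, which is above the level, against 3638 and 4083.

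Of 15 voltage-gated sodium channel genes 9 were detected (60%), against 47.9% over all genes. Scn3a, the alpha subunit of embryonic and early postnatal neurons, was the brightest at 2056 and 2089.8, followed by Scn1a at 1179 and 1397, and neither was called. Scn2a, an alpha subunit of unmyelinated axons, read 899 and 996 against 51.4 and 163. The beta subunit Scn3b read 631 and 874 against 105 and 104. Scn8a, the main alpha subunit of mature axons, read 574 and 782 and was not called. Scn2a (3.13), Scn3b (2.65) and Fgf13 (1.85), an intracellular channel regulator, were called higher of 11 tested, the last not without MP amacrine replicate 2 (limma adjusted p 0.0683) or MP bipolar replicate 2. The leak channel gene Nalcn (346 and 222 against 1101 and 1334) was called lower. Scn10a (9.97 and 6.34) and Scn4b (5.52 and 5.91) were not detected.

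Potassium channels were few but some were bright. Of 38 voltage-gated members 13 were detected (34.2%). Kcnd3, an A-type channel, led at 3802 and 3548, although 3 of its 4 probe sets lay below the level. Some Shaker-type genes were among those called higher than in bipolar cells. Kcna2 read 1681 and 1593 against 339 and 319.7, Kcna1 750.4 and 785 against 7.24 and 7.16, and Kcna4 227 and 245 against 31 and 29.9. Kcnd2 read 293 and 227 against 33.3 and 72.4. Kcnc1, a fast channel, read 1212 and 1049 and was not called, as were Kcnip1, Dpp6 and Kcnip4, which modify A-type channels. Of 23 tested 5 were called higher, Kcna1 (5.08), Kcna4 (2.44), Kcna2 (2.26), Kcnd2 (2.05) and Kcnh1 (1.0), and 3 lower. Those lower were Kcna5 (-4.08), Dpp10 (-2.11) and Kcnab2 (-1.78). Kcna5, also of the Shaker type, read 61.4 and 52.6 against 1179 and 1251 in bipolar cells. Kcnh1 read 65.8 and 64.5, below the level, and lost its call without either amacrine replicate or without MP bipolar replicate 1 (limma adjusted p up to 0.12). Of 36 inward rectifier, leak and calcium-activated members 6 were detected (16.7%). Kcnj3, a subunit of the G protein-gated GIRK channel, read 1541 and 1554 against 48.5 and 35 and its partner Kcnj6 121 and 126. The leak channel Kcnk2, or TREK-1, read 425 and 617 against 54.6 and 46.2. Kcnma1, the large-conductance calcium-activated channel, was present at 365 and 357 but far brighter in bipolar cells at 3710.2 and 3931, while its subunit Kcnmb4 was alike (2197 and 1667). Kcnj3 (4.77) and Kcnk2 (2.99) were called higher and 5 members lower. The latter were Kcnk3 (-3.87), Kcnt2 (-3.64), Kcnma1 (-3.35), Kcnmb2 (-2.07) and Kcnj9 (-1.66). Kcnk3 read 38.6 and 28.9 against 648 and 775, and Kcnj9 154 and 62.1 against 323 and 379, so relatives of both higher genes went the other way.

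Of 16 voltage-gated calcium channel genes 8 were detected (50%). Cacna2d3, an accessory subunit, read 2615 and 2310.0 against 1049 and 1287. Cacna1a, the P/Q-type pore, read 1809 and 2006 against 858 and 1158. The L-type gene Cacna1d read 1012 and 769 against 245 and 287, and the N-type gene Cacna1b 377 and 656 against 211 and 238. In each of these 4 genes the amacrine arrays lay above the bipolar arrays. The T-type gene Cacna1g read 231 and 192 against 204 and 195 and was not called. The L-type gene of photoreceptor and bipolar terminals, Cacna1f, was dim at 13.8 and 6.03 against 179.7 and 226. Of 14 tested 7 were called higher and 4 lower. Of the 7, Cacna1a, Cacna1b, Cacna1c and Cacna1h were not called without MP amacrine replicate 2, and neither these nor Cacnb4 without MP bipolar replicate 1. Cacna2d3 (1.07) and Cacna1d (1.68) had a call in every alternative, with limma adjusted p of 0.00394 and 0.00246.

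Of 34 HCN, TRP, cyclic nucleotide-gated, chloride and acid-sensing channel genes 20 were detected (58.8%). Trpm3 (1173 and 1724), Clcn4 (977 and 899), Trpm7 (675 and 893) and Clcn3 (667 and 1055) were the brightest, and none of these was called. Asic1, an acid-sensing channel, read 134 and 173 against 4.79 and 3.51 and was the only member called higher (log2 difference 3.06, SE 0.21, limma adjusted p = 7.54e-05). In the other direction 4 members were called lower, Asic3 (-3.02), Hcn3 (-1.92), Trpc1 (-1.72) and Asic4 (-1.13). Asic3 read 5 and 4.29 against 123 and 185, so the acid-sensing genes went both ways. Of 21 transporters that set chloride and pH and ion pumps 14 were detected (66.7%). Slc12a5, or KCC2, which pushes chloride out of mature neurons, read 3485 and 3159, and Slc12a2, or NKCC1, which takes it up, 1185 and 978. Atp1b3, a sodium pump beta subunit, read 859.5 and 774 against 85.6 and 133 and was the member called higher (2.76). A 2nd member was called higher without either amacrine replicate. Of 18 tested, 8 were called lower (5 without MP bipolar replicate 2), among them the calcium exchanger Slc8a3 (1013 and 864 against 2308 and 2696). Gap junction genes other than Gjd2 were mostly below the level. Gjc1, connexin 45, read 821 and 665 against 595 and 521, Panx1 102 and 83.3, and the other 10 of 13 were not detected.

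**Figure D3:**
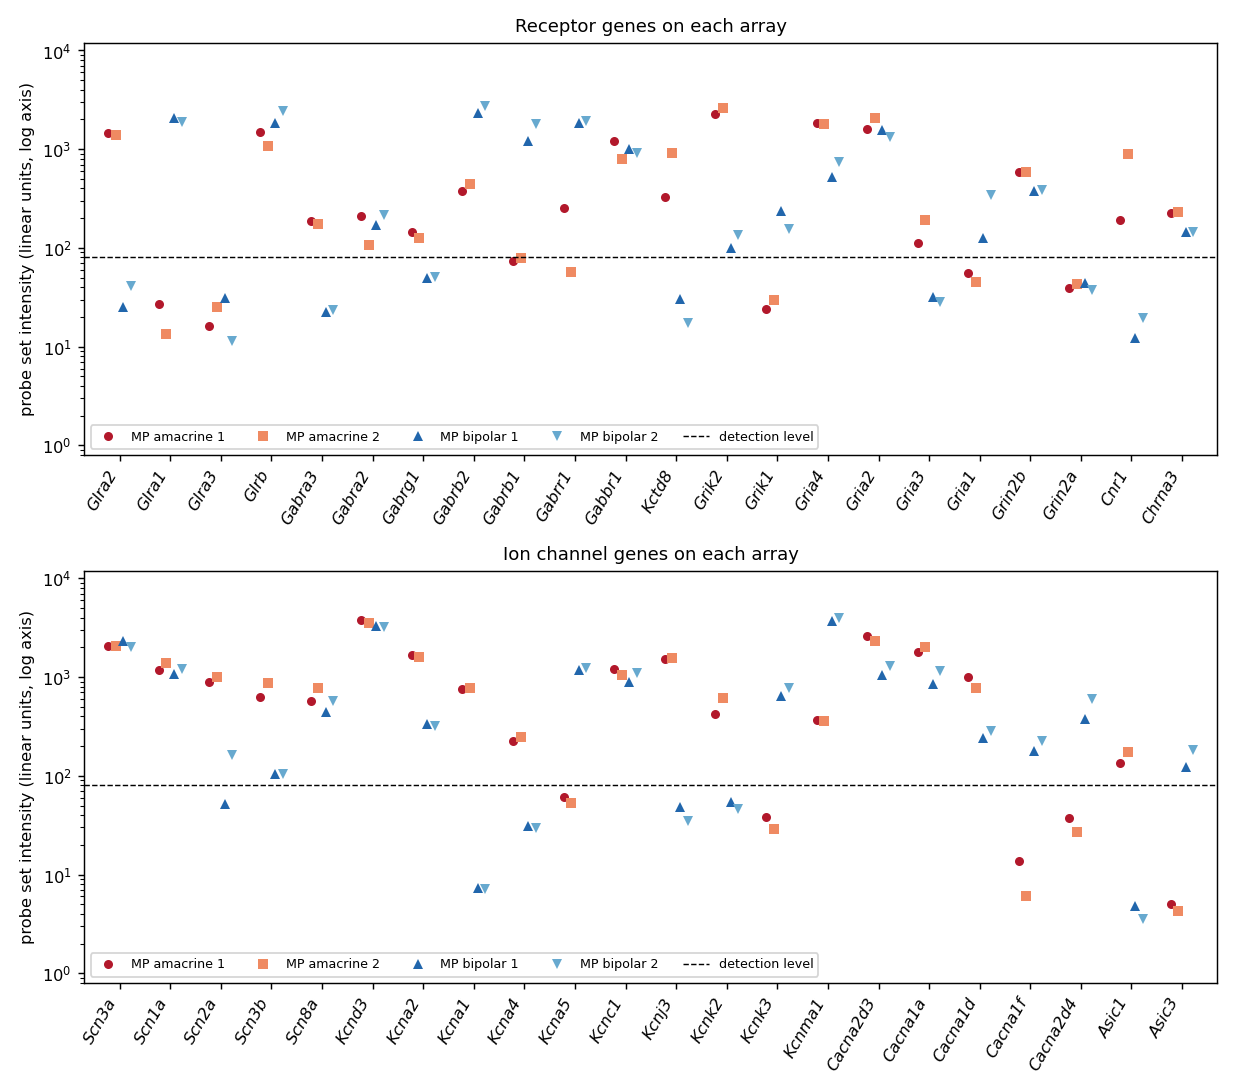
Intensities (log axes) of receptor genes (top) and ion channel genes (bottom) on the 4 arrays, with the detection level of 80.3 dashed. Glra2 and Glra1 exchange places between MP amacrine and MP bipolar cells, and Kcna1, Kcnj3 and Asic1 lie below the level on both bipolar arrays.

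Most genes of the release machinery were present, with 40 of 50 genes detected (80%) and 8 of them among the brightest 5% of all genes. The vesicle calcium sensor Syt1 read 3305 and 3215, the small GTPase Rab3a 2982 and 2225 and the membrane fusion protein Snap25 2233 and 2194. The complexin Cplx3, known from ribbon synapses and some amacrine cells, read 2453 and 2094 against 2878 and 3119.7 and was not called. Stx3, the syntaxin of ribbon synapses, read 1738 and 2366 against 2389.7 and 2708. Rab3c, a relative of Rab3a, read 2185 and 2102 against 485 and 481. The calcium sensor Syt7 read 306 and 362 against 87.1 and 80.2, and Rph3a, a Rab3 effector, 363 and 628 against 87.7 and 80.8. Of 44 tested 6 were called higher, Rab3c (2.11), Rph3a (2.30) and Syt7 (1.81) among them, and 9 lower, such as Ctbp2 (-0.81), whose long form makes the ribbon, and Sv2b (-0.97). Without MP amacrine replicate 2, or without either bipolar replicate, the number called higher was 3, and without MP bipolar replicate 2 the number called lower was 6. Calcium-binding protein genes had 11 of 18 detected (61.1%). Necab1 (1253 and 1155 against 123 and 186), Vsnl1 (1142 and 1236 against 254 and 299) and Hpca (326 and 155 against 18.9 and 37.6) were called higher with Calb2. Called lower were Cabp5 (-4.91), Hpcal4 (-2.79), Cabp2 (-2.34) and Cabp1 (-1.28), the last not without MP amacrine replicate 2 or without either bipolar replicate (limma adjusted p up to 0.185).

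Of 36 bHLH transcription factor genes 13 were detected (36.1%), and 6 of these were among the brightest 5% of all genes. After Tcf4, Neurod4 and Neurod1 came Nhlh2, a neuronal bHLH factor whose promoter is shown above, at 2165 and 2598 against 30.8 and 34.3. The partner gene Tcf12 read 1638 and 2090.1 and Hes6 1580.2 and 1342. Hes5, a Notch target of progenitors and glia, read 203 and 352 against 9.3 and 22.1, and Id2, an inhibitor of bHLH factors, 151 and 270.2 against 25 and 30.3. Nhlh1, a relative of Nhlh2, read 177 and 199 against 28.8 and 26. Of 21 tested, 9 were called higher and 0 lower, among them Nhlh2 (5.62), Neurod2 (4.48), Hes5 (3.19), Id2 (2.33) and Nhlh1 (2.23). Neurog2 (71.2 and 99.79 against 15 and 19.1), a proneural factor, was called higher while its replicate 1 lay below the level.

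Of 73 homeobox and related genes 28 were detected (38.4%). The eye field factors Six6 and Six3 read 2109 and 2042 and 1753 and 1791 against 744 and 695 and 231 and 201 in bipolar cells. Six2, of the same family, read 401 and 571 against 13.8 and 18.6. Otx2, a factor of photoreceptors and bipolar cells, was still bright in the amacrine cells at 1523 and 1646, below its bipolar values of 3718 and 3848. Of 42 tested, 9 were called higher, among them Pax6, Six3 (2.95), Six2 (3.95), Meis2 (3.32), Meis1 (2.13), Prox1 (3.26) and Barhl2 (2.80), and 11 lower. Of 86 other factors 50 were detected (58.1%). Sox4 (4839.8 and 5211) and Prdm8 (4599.8 and 4694) were the brightest and were bright in bipolar cells too, whereas Sox11, a factor of newborn neurons, read 2229.7 and 2339 against 64.6 and 48.6. The zinc finger factor St18 read 2219.7 and 2221 against 162 and 100.2, Nfix 2637 and 2054 against 141 and 58.2, and Zfp423, an Ebf partner, 1595 and 1703 against 502 and 258. Of 65 tested, 21 were called higher and 8 lower, and without MP bipolar replicate 2 the counts were 14 and 5.

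Growth factor and receptor genes had 23 of 52 detected (44.2%), and 5 were in the brightest 5% of all genes. Besides Vegfc, Ret, Crabp1 and Lgr5, the angiogenic factor Vegfa read 1649 and 1888 and the receptors Igf1r and Lgr4 785 and 1080.5 and 1280.4 and 739, none of them called. Egfr, the receptor of epidermal growth factor, read 473 and 377 against 28 and 59. Aldh1a1, a retinoic acid-making enzyme, read 180.0 and 146 against 4.62 and 4.86. Gfra2, the co-receptor by which Ret binds neurturin, read 318 and 161 against 39.5 and 27.4, but on a probe set of a kind that can match several transcripts, and without such probe sets its difference was -0.02. The receptor tyrosine kinase gene Kit read 100.3 and 227 against 20.4 and 18.9. Of 32 tested, 8 were called higher and 3 lower.

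Of 146 adhesion, guidance and lamination genes 84 were detected (57.5%). The brightest were the teneurin Tenm2 (3650.4 and 3574), Cadm1 (3167 and 3009), Ncam1 (2747 and 3191), the netrin receptor Dcc (2394 and 2779.5), Nrxn3 (1835 and 1988), N-cadherin, Cdh2 (1887 and 1816), and the latrophilin Adgrl1 (1844 and 1784), each with bipolar values of the same order. Some others were called higher than in bipolar cells. Efnb2, an ephrin, read 1720.2 and 2317 against 143 and 128, and the Eph receptor Ephb1 1335 and 1470.0 against 30.7 and 23.7. The protocadherins Pcdh8 and Pcdh19 read 2385 and 1688 and 935 and 812 against 106 and 129.9 and 100.1 and 73.1. The semaphorin receptor Nrp2 read 1694 and 1528 against 591 and 876. Of 116 tested, 19 were called higher and 35 lower. Members of the same families went both ways. The protocadherins Pcdh17 (-5.24), Pcdh10 (-3.80) and Pcdh9 (-3.39) were called lower. So were the Eph receptors Epha3 (-4.17), Epha5 (-3.29) and Epha7 (-2.99), with Slitrk6 (-5.04) and Clstn2 (-4.40). The list for the sugar epitope that VC1.1 recognises had 8 of 11 members detected (72.7%). The brightest were the glucuronyltransferase B3gat1 at 3011 and 2989 and the carriers Ncam1 and Ncan (1465 and 1309.7). Among the 8 was Phactr1 (245 and 279), a phosphatase and actin regulator gene rather than an enzyme or carrier of the epitope. Since the cells were sorted on this epitope, its genes are no independent description of them.

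**Figure D4:**
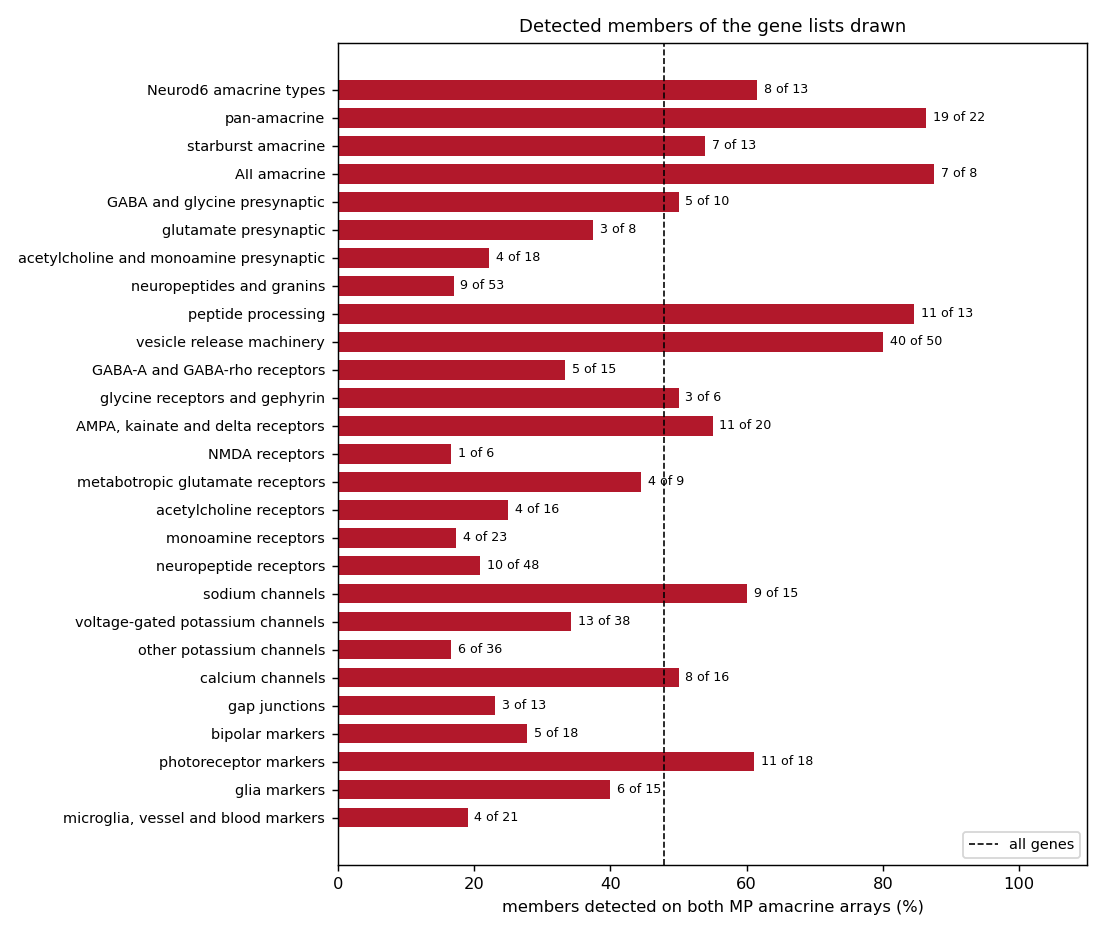
Share of the members of the gene lists drawn that were detected on both MP amacrine arrays (bars, with counts), and the share over all 18193 genes, 47.9%, as a dashed line. Of the lists drawn, the pan-amacrine, AII, peptide processing and release lists lie highest, and the neuropeptide, NMDA receptor and other potassium channel lists lowest.

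Markers of other cell types were present to differing degrees, and their part in the results above was not tested. Of 18 rod and cone genes 11 were detected (61.1%), with Sag, rod arrestin, at 3336 and 2462 and Gngt1, the rod transducin gamma subunit, at 4138 and 1983. The bipolar arrays gave the same rod genes 2422 and 3252 and 3193 and 3908, and the summed intensity of the list was 13725 and 8406 in the amacrine cells, against 10609 and 12275. Of 13 tested 1 was called in each direction, and neither without a bipolar replicate. Without MP amacrine replicate 2, 3 were called higher, and without MP amacrine replicate 1, 4 lower. Prph2 (1.2 and 1.92) and Gnat1 (17.6 and 18.7) were near 0. Bipolar markers had 5 of 18 detected (27.8%) and summed to 4417 and 3731 against 16781 and 17657. Of these 15 were tested and 12 called lower and 0 higher, with a median log2 difference of -3.09. Cabp5 (259 and 29.4), Pcp2 (228 and 54.2) and Vsx1 (154 and 67.7), all bipolar genes, passed the level on replicate 1 alone, and without replicate 2 the detected bipolar markers numbered 9. Ganglion cell markers had 8 of 16 detected (50%) and summed to 11742 and 9796 against 3160 and 3995. Ebf3 and Ebf1, which are also markers of these amacrine cells, gave most of that sum, while Pou4f3 (1.56 and 1.64), Isl2 (49.2 and 51), Rbpms (39.1 and 41.7) and Eomes (20.1 and 27.6) were below the level. The other detected members were Nefm, Nefl, Stmn2, a growth-associated gene (941 and 431 against 44 and 27.9), the POU factor gene Pou4f1 (157 and 88.8 against 60.3 and 36.8), Nrn1 (124 and 134 against 124 and 131) and the surface protein gene Thy1 (806 and 1455 against 2462 and 3415). Of these Stmn2 was called higher and Thy1 lower, the latter not without MP bipolar replicate 2 (limma adjusted p 0.0794). Of 15 glial genes 6 were detected (40%), with Vim, the intermediate filament vimentin, at 1672 and 1518 against 108 and 233, and Gfap (15.7 and 24.9), Aqp4 (18.1 and 9.43) and Sox9 (10.8 and 26.5) below the level. The other detected glial genes were Glul, Dkk3 (228 and 192 against 58.6 and 57.8), Apoe (190.5 and 120.3 against 94.5 and 9.81), Clu (188 and 128 against 261 and 323) and Rlbp1 (80.9 and 156 against 20.8 and 58.8). Vim, Dkk3, Crym and Slc1a3 were called higher and 0 lower, Crym not without MP amacrine replicate 2 or MP bipolar replicate 1 (limma adjusted p up to 0.233). The glial sums were 4809 and 4474 against 2365 and 2951. Progenitor and cell cycle genes had 4 of 12 detected, Pcna (769.6 and 612), the cyclin Ccnd1 (542 and 759), Hes5 and Mcm6, with Mki67 at 37.6 and 67.8 and Top2a at 29.8 and 63.2.

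Some genes were bright on 1 amacrine array only. Among 5058 genes above 300 on an amacrine array, 23 differed more than 4-fold between the arrays, 11 of them higher on replicate 1 and 12 on replicate 2, and they are named here after their values were seen. Npy (773 and 25), the neurofilament genes Nefm (1631 and 136) and Nefl (1102 and 87.5), and Calb1 (517 and 39.5) were high on replicate 1. Lhx1, a homeobox factor of horizontal cells, read 51.2 and 3.79, and the transcript next to it, Lhx1os, 399 and 27.4. Calb1, Nefm and Septin4 are also expressed by horizontal cells, but Septin4 (632 and 112) read 561 and 617 in bipolar cells too. The horizontal cell list had 5 of 9 detected and summed to 4226 and 3780, against 1968 and 1840. A large part of each sum came from its member Tpm3, at 1828 and 1371 against 734 and 733. Of the same list, Prox1 (629.7 and 1522) and Onecut2 (191 and 453) were higher on replicate 2. On replicate 2 the high genes included Lamp5, Maf, Sox2, Cnr1 and the microglial protease gene Ctss (567 and 2665). Ctss also differed between the bipolar arrays, at 1003 and 2.27. Of 21 microglial, vascular and blood genes 4 were detected (19%), and their sum was 1651 and 4637, against 2095 and 791. Besides Ctss these were Tyrobp, a microglial adaptor, at 107 and 359.9, the receptor gene Csf1r at 383 and 663 against 256 and 197 and the complement gene C1qb at 105 and 163 against 186 and 143, while the microglial genes P2ry12 (13.5 and 49.7) and Aif1 (6.92 and 39) were below the level. Csf1r was called higher (1.11, limma adjusted p = 0.0484), but not without MP amacrine replicate 2 or either bipolar replicate (limma adjusted p up to 0.252). Xist, expressed from the inactive X of female cells, read 111 and 2574 in the amacrine cells, against 4920.5 and 5536, so the pools differed in it. Of the 7 markers Tfap2c alone (434 and 918) differed more than 2-fold between the amacrine arrays, and Glra2, Grik2, Kcna1 and Kcnj3 did not.

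**Figure D5:**
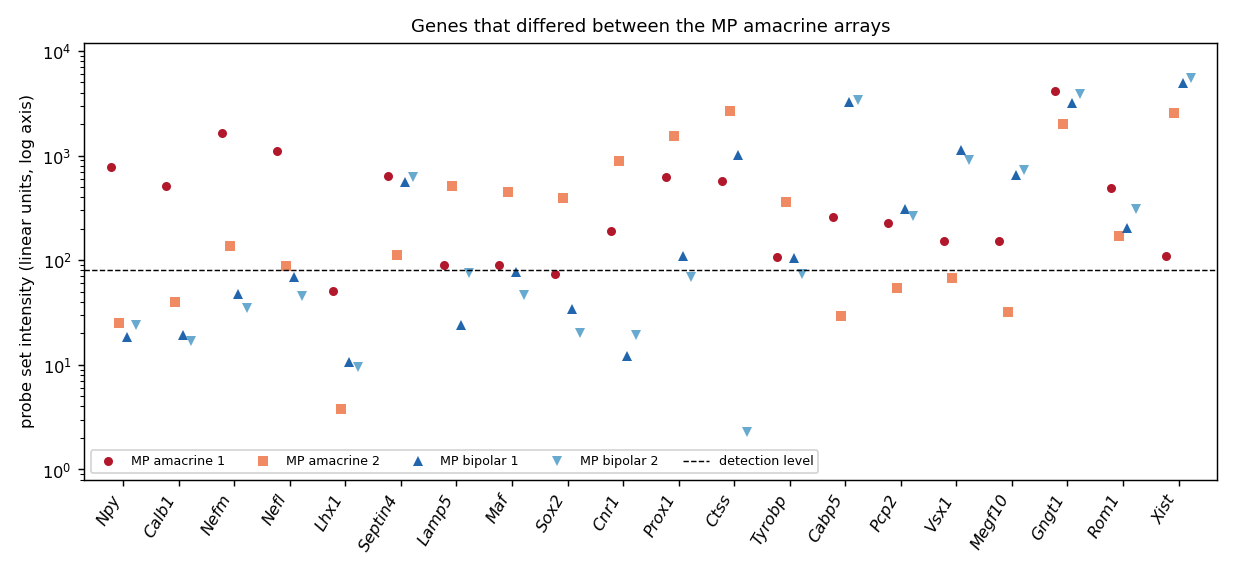
Intensities (log axis) of genes that differed between the 2 MP amacrine arrays, with the detection level of 80.3 dashed. Npy, Calb1, Nefm and Nefl are high on MP amacrine 1 alone, and Lamp5, Maf, Sox2 and Ctss higher on MP amacrine 2.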

How the data were processed

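RNA of 2 MP amacrine and 2 MP bipolar samples, about 1000 sorted cells each, was amplified in 2 rounds with a MessageAmp II kit after PicoPure extraction and hybridised to Affymetrix arrays, per the labels' protocols. The deposited table holds 1 linear intensity for each of 45101 probe sets and array, as the authors made it. The software behind the authors' intensities, with its background correction and scaling, is not stated in the sources used here, so values were taken as deposited. Samples were grouped by title. Replicates came from different litters.

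The platform annotation gives 1 gene symbol for 34945 probe sets, several for 932 and none for 9160, and 64 are controls. Only the first were used, for 18193 genes, of which 18032 were found in a RefSeq table (GRCm38.p6). The probe set with the highest mean log2(intensity + 16) over the 4 arrays stood for its gene. The reference set of 160 genes had a median lower amacrine intensity of 11.4, and 8 of them passed the level, led by Psg28 at 759.9.

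Groups were compared with limma 3.58.1 in R 4.3.3 (lmFit, eBayes with intensity trend, 2 residual degrees of freedom), two-sided, on genes above the array median on at least 2 of 4 arrays. Fold changes on this scale understate the difference of dim genes. The script was tested on simulated data, in which 2.56% of changes of 1 (log2) and 56.75% of changes of 2 were called. The simulated spreads were those of the real genes shuffled across genes, without their tie to intensity. These shares therefore need not hold for the real data. Called means an adjusted p under 0.05. Without an array, a group of 1 array took its spread from the other group.

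Named were the 7 markers, the 25 brightest genes, the 25 brightest called higher by at least 3 (log2), all members of the lists of Neurod6, starburst, dopamine, VGluT3 and AII types, of presynaptic GABA, glycine and glutamate genes and of glycine receptors. Of each other list up to 8 detected members by intensity, up to 4 further members called higher, and dim members of a role otherwise missing were named. Markers named as dim for other cell types, genes called lower, and those that differed between the amacrine arrays were added after their values were seen. The members and the 47 lists were chosen with earlier results of these data known. List genes that lack such a probe set were not analysed here. Alternatives covered the detection level, scaling, pseudocount, filter, choice of probe set, variance moderation, the replicate number as a block, and each replicate left out. The number of arrays limits the precision of all values.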

Additional observations from a re-analysis of the deposited data

How the results depend on the processing

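The number of detected genes stayed between 6119 (99th percentile of the reference genes) and 10663 (array median as the level), and between 8447 and 9225 with each MP amacrine replicate alone. Of the 25 brightest genes 20 to 22 stayed among the 25 with each amacrine replicate alone, 22 after quantile scaling and 23 by mean log2. Without a filter on dim genes 400 genes were called higher and 385 lower, from more genes tested. With each of the 4 replicates left out in turn the calls ranged from 501 to 763 higher and from 416 to 1176 lower, the lowest of both without MP bipolar replicate 2. Under quantile scaling 776 were higher and 696 lower, under median scaling 673 and 692. With the replicate number as a block there were 916 and 1016, and 1544 of the 1559 called genes were also called with the block. The labels do not say that the numbers pair samples, and the deviations of same-numbered arrays had a correlation of -0.04 across genes. Of 280 named list genes that were called, 177 kept their call under every alternative run, 99 lost it in at least 1, and 4 changed sign. Cacna2d4 gave 0.0394, Car10 0.27 and Ntrk2 1.62 (log2, limma adjusted p = 0.0149 for Ntrk2) with the probe set of the highest lower amacrine intensity, and Gfra2 -0.0202 without probe sets open to cross-hybridisation. The cause of these changes was not tested. Of 470 list counts under alternative levels 39 moved more than 1.5-fold, most of them at the 99th percentile or the array median. Dim genes are limited by the background, and a gene below the level may still be expressed.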

Other observations

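Probe sets without a single gene symbol carried signal too. Of 10092 such probe sets, 2485 (24.6%) lay above 80.3 on both MP amacrine arrays, against 38.0% of the probe sets with 1 gene. A further 930 genes passed that level on 1 amacrine array only, and 79 genes were called higher than in MP bipolar cells without passing it on both.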
